A study of Mus musculus with 8 samples.

Results

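Glycolysis and hypoxia response genes were followed as a list of 40 genes, chosen by gene name among the probes of a mouse expression array. Of these, 38 were found by name, with 65 probes, out of 28786 genes and transcripts on the array. A signal well above background on at least 4 of 8 arrays was required for a test, and 37 of the 38 met it, of 14881 genes and transcripts that did so in all. Of the 37, 34 were well above background on all 8 arrays. Ndrg1 was found but not tested, and Gapdh was not analysed here. Fam162a carries another name on the array and was matched through its accession, so it is described separately and is in none of the counts of members.

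Glycolysis splits glucose into pyruvate in the cytosol, and lactate dehydrogenase and the lactate exporter Slc16a3 (MCT4) dispose of the end product. Hypoxia-inducible factors (HIFs) are pairs of an oxygen-labile alpha subunit, Hif1a or Epas1 (HIF-2 alpha), and Arnt. Prolyl hydroxylases of the Egln family mark the alpha subunit for degradation when oxygen is available, and several of their genes are themselves HIF targets. Stabilized HIF raises transcription of glucose transporters, glycolytic enzymes, mitophagy receptors, collagen-modifying enzymes and the secreted factors Vegfa and Adm. In vascular smooth muscle, angiotensin II (AngII) is a hormonal stimulus of contraction and growth, and cyclosporin A (CsA) inhibits the phosphatase calcineurin.

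The cells were primary vascular smooth muscle cells grown from the aortas of C57BL/6 mice, with no genetic alteration given in the labels. In 4 cultures AngII was given at 1 µM, and in 4 others AngII at 1 µM together with CsA at 200 ng/ml. Age and duration of treatment are not given in the sources used here, and every culture received AngII, so no untreated level was analysed here. Each of the replicate numbers 1 to 4 held 1 array of either treatment on 1 slide with 1 scan. Replicate number, slide and whatever the cultures of the same number had in common therefore cannot be told apart. Levels are on a log2 scale relative to the 75th percentile (P75) of their own array's processed signals, and the levels of single genes are not ranked against each other, since probes differ in brightness. In every list of levels the 4 AngII arrays come first, in the order of replicate numbers 1 to 4.

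Between 42.8% and 51.7% of spots were well above background per array, and the P75 lay between 65.2 and 125 units of processed signal, lowest on the replicate 3 arrays. Probes spotted 10 times gave the technical error: the SD between spots was 0.02 to 0.05 for Gpi1, 0.03 to 0.08 for Vegfa and 0.06 to 0.14 for Pgk1 on the log2 scale. The smooth muscle genes Acta2, Tagln and Cnn1 were detected in all cultures, with replicate-number means of 5.59, 7.31 and 4.55 in replicate 1 and at least 7.19, 8.77 and 6.63 in the others. The Cnn1 means pool unlike treatments: it read 5.90, 7.38, 8.11 and 7.67 with AngII and 3.20, 5.87, 6.82 and 6.33 with CsA. The summed linear level of 8 tested smooth muscle markers, out of 9 listed, was 231 to 304 in replicate 1 and 718 to 1379 elsewhere. That of 5 tested fibroblast markers, out of 7, was 132 to 153 in replicate 1 and 63.3 to 84.0 elsewhere. Within these lists members went both ways: 4 smooth muscle markers had both replicate 1 arrays below the other 6 and 1 had both above, and of the fibroblast markers 2 were above and 1 below. The endothelial genes Pecam1, Cdh5 and Tie1 and the macrophage genes Adgre1 and Itgam were above background on no array, but 5 of 9 endothelial, 3 of 7 macrophage and 4 of 6 T cell markers were well above it on at least 4. Their summed levels per array were 0.659 to 0.980, 6.56 to 11.8 and 1.10 to 2.21. In RNA from whole cultures, fewer cells of a type and less RNA per cell cannot be told apart.

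Sequences before the transcription start were examined because the list includes HIF targets. HIF binds a hypoxia response element with the core ACGTG. The list was chosen in part for such targets, so the shares below are a description, and regulation of single members by HIF was not tested. The RefSeq promoter table (GRCm38.p6, from 250 bases before to 50 after each start) matched 33 of the 38 members. ACGTG on either strand occurred in at least 1 window of 23 of these 33 genes (69.7%), against 21.8% of the 27025 genes of the table. Counted by 300-base window, the shares were 55.3% of 47 and 19.6% of 32851. The related core GCGTG, counted separately, occurred in 22 of the 33 (66.7%), against 35.2% of genes. The 250 bases before the start are shown for Bnip3, a mitophagy receptor whose level differed between replicate numbers, and for Ldha and Pgk1, enzymes of the lower part of the pathway. Capitals mark ACGTG or its reverse complement CACGT, overlapping matches joined. They lie at chr7:138909507-138909756 (minus strand), chr7:46845554-46845803 (plus) and chrX:106186850-106187099 (plus).
Bnip3: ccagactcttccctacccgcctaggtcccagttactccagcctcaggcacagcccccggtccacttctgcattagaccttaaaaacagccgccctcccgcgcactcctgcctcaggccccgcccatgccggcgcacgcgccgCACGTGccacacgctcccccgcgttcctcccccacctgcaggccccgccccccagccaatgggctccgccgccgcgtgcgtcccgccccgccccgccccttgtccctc
Ldha: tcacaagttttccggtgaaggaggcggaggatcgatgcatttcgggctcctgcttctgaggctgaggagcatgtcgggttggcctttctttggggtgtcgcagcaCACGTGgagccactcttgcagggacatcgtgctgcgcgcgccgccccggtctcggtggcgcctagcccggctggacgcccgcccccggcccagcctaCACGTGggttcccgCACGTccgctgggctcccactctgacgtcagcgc
Pgk1: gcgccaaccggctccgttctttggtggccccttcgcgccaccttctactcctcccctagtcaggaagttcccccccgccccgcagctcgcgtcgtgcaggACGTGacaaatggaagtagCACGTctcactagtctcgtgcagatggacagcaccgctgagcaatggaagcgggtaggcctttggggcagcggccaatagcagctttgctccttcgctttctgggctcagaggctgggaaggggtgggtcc
Ldha had 3 separate stretches in capitals, Pgk1 had 2 and Bnip3 had 1. No window of Pdk1 or Adm held ACGTG. A match describes these letters and is no evidence of binding.

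The first comparison asked whether calcineurin inhibition by CsA altered these genes in AngII-treated cells. No member passed the test: limma on the groups alone, and limma with replicate number as a block, each called 0 of 37 at an adjusted p under 0.05 (Benjamini-Hochberg over all genes). Over all genes the groups alone called 0 of 14881 (0%) and the block fit called 4 (0.0269%). At an unadjusted p under 0.05 the members also gave 0 in both fits, where 0.282% and 5.31% of all genes passed. The mean difference, AngII+CsA minus AngII, ran from -0.27 for Car9 to 0.29 for Plod1. It was below 0 for 23 members and above 0 for 14, with a median of -0.03, and the median of all genes was -0.03 with 56.6% of genes below 0. This direction depended on scaling: the members' median was 0.07 when arrays were scaled to their median and 0.06 after normexp background correction. The median scaling moved the median of all genes by 0.10. With the block, the 95% interval of the difference lay within 1 log2 unit of 0 on both sides for all 37 members, and within 0.5 for 26.

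**Figure D1:**
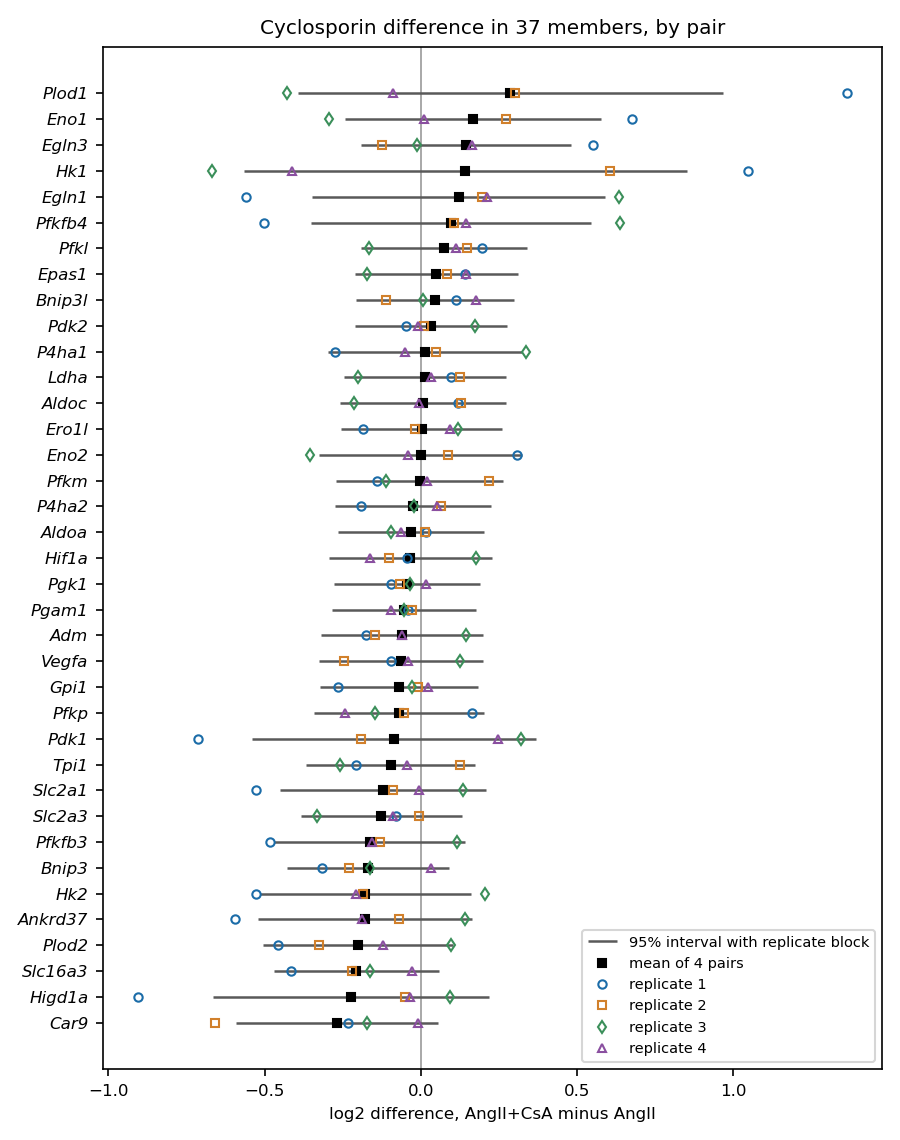
Log2 difference (AngII+CsA minus AngII, horizontal axis) for the 37 tested members (vertical axis). Black squares are means of 4 pairs, bars are 95% intervals from limma with replicate block, and coloured symbols are single pairs; every bar spans 0, and the widest scatter is that of replicate 1 (Plod1, 1.36).

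Transcripts for glucose transport and phosphorylation gave differences whose intervals spanned 0. Slc2a1 (GLUT1), the basal glucose transporter, read 7.82, 7.48, 7.84 and 7.64 with AngII and 7.29, 7.39, 7.98 and 7.64 with CsA added. The groups overlapped, and the difference of -0.12 (95% interval -0.45 to 0.21) was 0.014 without replicate 1. Hk2, the inducible hexokinase, read 4.32, 4.25, 3.48 and 3.98 with AngII and 3.79, 4.07, 3.68 and 3.77 with CsA. It was lower with CsA in 3 of 4 pairs, by -0.18 on average (95% interval -0.52 to 0.16, limma adjusted p = 0.915 with the block). Without replicate 1 the difference was -0.061, and with normexp -0.036. Pfkfb3 makes fructose 2,6-bisphosphate, which activates phosphofructokinase. It read 4.15, 3.81, 3.97 and 3.80 with AngII and 3.67, 3.67, 4.09 and 3.64 with CsA, lower in 3 of 4 pairs, with a difference of -0.16 (-0.47 to 0.14), which was -0.057 without replicate 1 and -0.031 with normexp.

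At the end of the pathway, Ldha, which reduces pyruvate to lactate, read 9.79, 9.51, 10.67 and 9.85 with AngII and 9.89, 9.64, 10.47 and 9.88 with CsA. Its difference was 0.01 (95% interval -0.25 to 0.27). Slc16a3, the lactate exporter, read 9.98, 9.37, 10.23 and 9.56 with AngII and 9.56, 9.15, 10.07 and 9.54 with CsA. It was lower in 4 of 4 pairs, by -0.21 on average (-0.47 to 0.06, limma adjusted p = 0.888 with the block), and by -0.136 without replicate 1 and -0.069 with normexp. Car9, a cell-surface carbonic anhydrase that handles acid from glycolysis, had the smallest p with the block. It read -0.39, -0.01, -0.44 and -0.68 with AngII and -0.62, -0.67, -0.62 and -0.69 with CsA, again lower in 4 of 4 pairs. The difference was -0.27 (-0.59 to 0.06, unadjusted p = 0.0898, limma adjusted p = 0.885 with the block), and most of it came from replicate 2, where the pair differed by -0.66; without replicate 2 it was -0.138. Pgam1 and Slc2a3 were the other members lower in every pair, which makes 4 of 37, where 10.1% of all genes were; no member was higher in every pair, against 4.78% of genes. Under quantile normalization only 1 member was lower in every pair.

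Among regulators, Hif1a read 5.77, 4.72, 5.00 and 4.62 with AngII and 5.73, 4.62, 5.18 and 4.46 with CsA, a difference of -0.03 (95% interval -0.29 to 0.23). Epas1 read -2.63, -0.91, -1.29 and -0.95 with AngII and -2.49, -0.82, -1.47 and -0.80 with CsA, a difference of 0.05 (-0.21 to 0.31). For both subunits the groups overlapped. Egln3 (PHD3) read -3.00, -0.76, -3.02 and -0.72 with AngII and -2.45, -0.89, -3.04 and -0.56 with CsA, a difference of 0.14 (-0.19 to 0.48). Egln1 (PHD2) read -2.53, -3.48, -5.19 and -3.61 with AngII and -3.09, -3.29, -4.55 and -3.40 with CsA. It was well above background on 5 of 8 arrays, on neither array of replicate 3, and its difference of 0.12 (-0.35 to 0.59) turned to -0.20 after normexp correction. Vegfa, the endothelial growth factor, read 6.86, 6.75, 6.35 and 5.90 with AngII and 6.77, 6.50, 6.48 and 5.86 with CsA, a difference of -0.06 (-0.33 to 0.20). Plod2, a lysyl hydroxylase of collagen, read 1.14, 0.87, -0.06 and 0.62 with AngII and 0.69, 0.54, 0.04 and 0.50 with CsA, lower in 3 of 4 pairs by -0.20 (-0.51 to 0.10), and by -0.117 without replicate 1. The 13 tested glycolytic enzymes had 9 differences below 0 and 4 above, from -0.18 for Hk2 to 0.17 for Eno1. Pfkfb4, the other regulator of fructose 2,6-bisphosphate, differed by 0.10. Pdk1 and Pdk2 differed by -0.08 and 0.03, and Bnip3 and Bnip3l by -0.17 and 0.05. The prolyl hydroxylases of collagen P4ha1 and P4ha2 differed by 0.01 and -0.02, and the lysyl hydroxylase Plod1 by 0.29 (95% interval -0.39 to 0.97). Adm differed by -0.06, Ankrd37 by -0.18 and Higd1a by -0.22, while Ero1l, an oxidase of protein folding in the endoplasmic reticulum, differed by 0.0027.

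The wider pathways also gave no call at the adjusted threshold. None of 28 further tested genes of glycolysis and pyruvate use, 44 further HIF pathway and target genes or 35 genes of the TCA cycle and respiratory chain passed the test in either fit. Their median differences were -0.04, -0.07 and -0.06. Lower in 4 of 4 pairs were 5, 9 and 0 genes of the 3 lists, where 10.1% of all genes were. Higher in 4 of 4 pairs were 0, 3 and 0, where 4.78% of all genes were. Ldhb, the lactate dehydrogenase subunit that favours pyruvate formation, had the smallest p of these genes. It read 5.66, 6.35, 7.20 and 6.87 with AngII and 5.10, 5.90, 6.75 and 6.46 with CsA. It was lower in 4 of 4 pairs, by -0.47 (95% interval -0.71 to -0.23, limma adjusted p = 0.885 with the block), and was the only gene of the 3 lists with an unadjusted p under 0.05, in the block fit (0.0025) and not in the fit on groups alone. The next in their lists were Pdk3 (-0.23) and Eno3 (-0.37), then Arnt (-0.24), Narf (-0.21) and Pgf (-0.25), and in the TCA list Atp5b (-0.21), Ppargc1a (-0.18) and Idh3a (-0.26).

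The first pair differed more than the other pairs. In replicate 1, 11 of 37 members differed by over 0.5 between treatments, where 26.5% of all genes did, so the members' share was near the background. In replicates 2, 3 and 4 it was 2, 3 and 0 members, and 7.53%, 14.8% and 5.89% of all genes. Plod1, a lysyl hydroxylase, read 3.45, 4.49, 6.05 and 5.31 with AngII and 4.82, 4.79, 5.62 and 5.22 with CsA, so that the pair differed by 1.36 in replicate 1 and by -0.43 in replicate 3. Hk1, the constitutive hexokinase, differed by 1.05 and -0.67 in the same pairs, and Eno1, enolase, by 0.68 and -0.29. Higd1a, a mitochondrial protein induced by hypoxia, went the other way, with 8.42 and 7.52 in replicate 1, a difference of -0.90. These 4 were chosen after their values were seen. Their probes are shown because results for single members rest on 1 such stretch each, and no base is marked.
Hk1: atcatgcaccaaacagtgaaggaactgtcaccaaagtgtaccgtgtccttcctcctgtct
Plod1: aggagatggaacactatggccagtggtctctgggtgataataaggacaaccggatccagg
Eno1: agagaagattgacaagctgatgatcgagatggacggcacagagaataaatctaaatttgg
Higd1a: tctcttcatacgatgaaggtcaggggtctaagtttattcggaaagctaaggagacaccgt
In build mm7 they lie at chr10:61788725-61788784, chr4:146905470-146906890, chr4:149233567-149233792 and chr9:121553753-121553812. The Plod1 and Eno1 spans of 1421 and 226 bases exceed the 60-base probe, and the exon or UTR status of the probes was not looked up in that build. Hk1 had 5 probes above background. In replicate 1, 4 of them differed by 1.01 to 1.45, while the probe with the lowest coordinate, which lies at chr10:61787906-61787965, differed by -0.02.

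The second comparison was the spread over replicate numbers. An F-test of replicate number in limma called 28 of 37 members (75.7%) at a Benjamini-Hochberg adjusted p under 0.05, and 68% of all genes, so the members' share was near the background. Without replicate 3 the test called 13 members and 53.7% of all genes, and under quantile normalization 17 members and 54.9% of all genes. The largest SDs of the 4 replicate-number means were those of Egln3, Bnip3, Egln1, Pdk1, Aldoc and Epas1, where Egln3 and Egln1 rest in part on replicate 3 arrays that were not well above background. The smallest were those of Pdk2, Car9 and Pfkfb3. Pdk2, another pyruvate dehydrogenase kinase, read -0.02, 0.11, -0.07 and 0.21 with AngII and -0.07, 0.12, 0.10 and 0.21 with CsA.

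**Figure D2:**
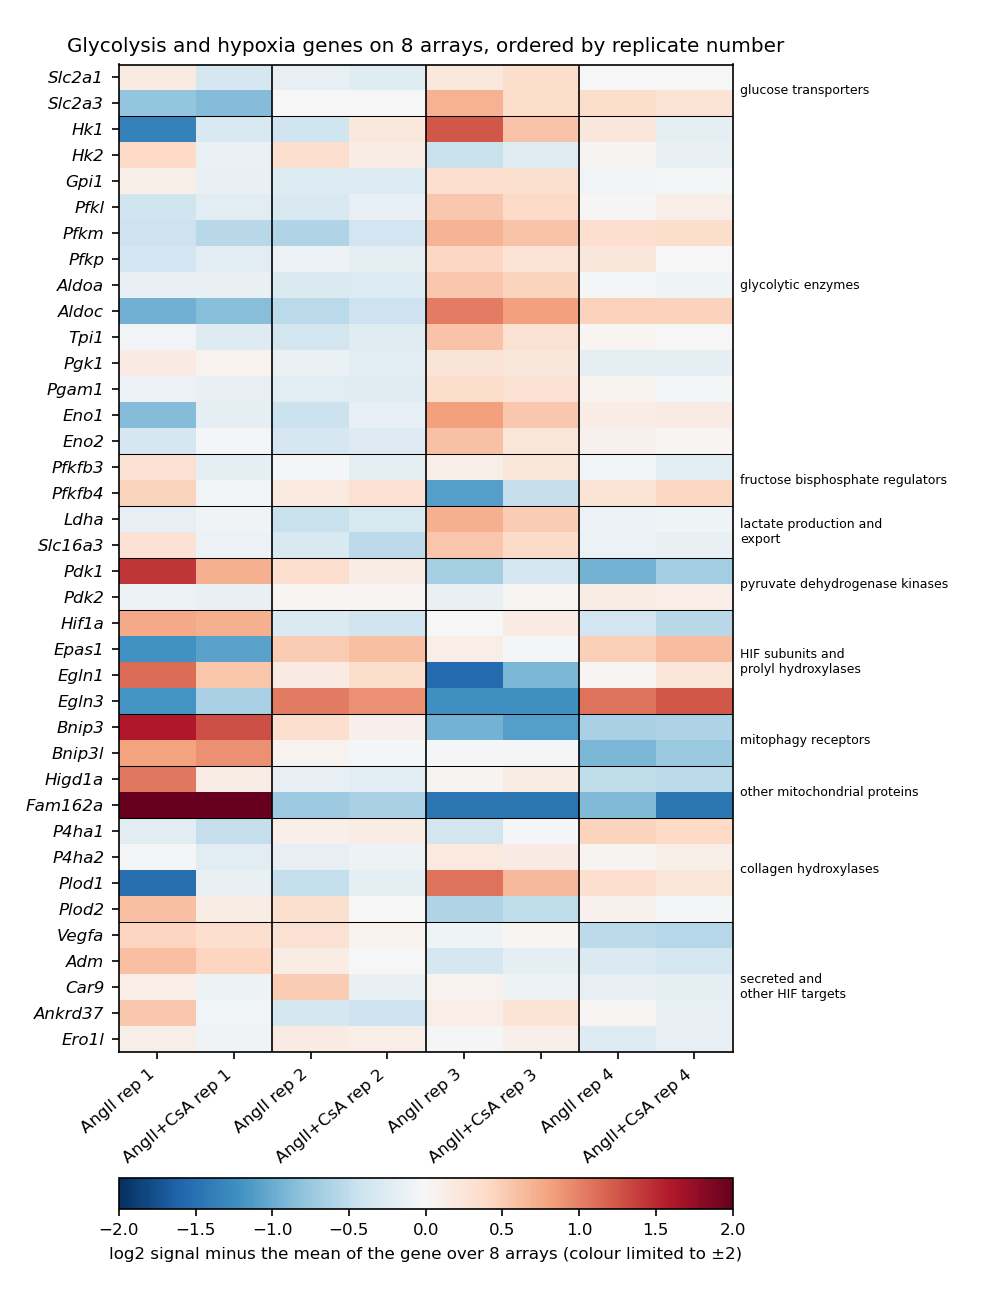
Each row is 1 gene (37 members and Fam162a) and each column 1 array, in pairs by replicate number; colour is the log2 signal minus the mean of the gene over 8 arrays. The arrays of a replicate number resemble each other, with mitophagy receptors and Pdk1 high in replicate 1 and glycolytic enzymes high in replicate 3.

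Several HIF targets outside glycolysis were highest in replicate 1. Bnip3 read 0.18, -1.08, -2.36 and -2.06 with AngII and -0.13, -1.31, -2.52 and -2.03 with CsA. Both replicate 1 arrays lay above the other 6, and the replicate-number means spanned 5.53-fold (limma F-test adjusted p = 0.00101). Pdk1, a mitochondrial kinase that inhibits pyruvate dehydrogenase, read 1.29, 0.20, -0.80 and -1.08 with AngII and 0.58, 0.01, -0.48 and -0.84 with CsA, a span of 3.72-fold (adjusted p = 0.00621). The second mitophagy receptor Bnip3l and the secreted peptide Adm spanned 3.21-fold and 1.79-fold, with Hif1a at 2.31-fold. Counting genes whose 2 arrays of a replicate number both lay above the other 6, a rule chosen after the values were seen, 7 of 37 members were highest in replicate 1 (Adm, Bnip3, Bnip3l, Egln1, Hif1a, Pdk1 and Vegfa). That is 18.9%, against 17.4% of all genes, near the background. A further 1 was highest in replicate 2 (6.09% of all genes) and 3 in replicate 4 (13.2%). Lowest were 4 members in replicate 1 (19.5% of all genes), 6 in replicate 2 (9.25%), 6 in replicate 3 (7.88%) and 6 in replicate 4 (18.6%). All 7 were among the 20 members outside glycolytic enzymes, glucose transporters, Ldha and Slc16a3, and none among those 17; that division was not tested. Adm, Bnip3, Bnip3l, Hif1a and Pdk1 were highest in replicate 1 under all 8 alternative settings examined.

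Fam162a, a HIF-induced mitochondrial protein, was high in replicate 1 alone. It read 2.13, -2.04, -2.78 and -2.21 with AngII and 1.87, -1.96, -2.78 and -2.75 with CsA (limma F-test adjusted p = 0.000437), and the AngII array of replicate 3 was not well above background. Ndrg1, a stress-induced gene and HIF target, read -1.15, -5.97, -5.27 and -5.67 with AngII and -0.84, -6.15, -5.40 and -5.81 with CsA. It was well above background on both replicate 1 arrays and on no other. Its replicate 1 mean lay 5.73-fold above the lowest signal well above background, averaged over the other 6 arrays. Spots that were not well above background can exceed that signal, so 5.73-fold is not a strict minimum. In the further HIF list, 12 of 44 genes (27.3%) were highest in replicate 3, against 23.4% of all genes. Lowest in replicate 4 were 15 (34.1%), against 18.6%. Highest in replicate 1 were 18 (40.9%), against 17.4%. Over the alternatives the 18 became 16 to 19. P4hb and Lox, named after their values were seen, were at -0.14 and -0.29 in replicate 1 and at most -2.22 and -2.11 elsewhere. In replicate 3 the lowest signal well above background was -3.03 with AngII and -3.19 with CsA. P4hb lay below it on both arrays (-3.25 and -4.24), and Lox lay below it with AngII (-3.64). Replicate 1 also had the lowest summed level of smooth muscle markers and the highest of fibroblast markers, with single markers in both directions, and their part in these values was not tested.

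Epas1 ran opposite to Hif1a. Both replicate 1 arrays lay below the other 6, with a 3.24-fold span over replicate numbers (limma F-test adjusted p = 0.00196). Aldoc, the aldolase isoform best known from brain, read 2.58, 3.00, 4.57 and 4.01 with AngII and 2.69, 3.13, 4.36 and 4.00 with CsA, lowest in replicate 1 and highest in replicate 3 (adjusted p = 0.00184). Egln3 had another arrangement: replicates 2 and 4 lay above replicates 1 and 3 (adjusted p = 0.00135), and neither array of replicate 3 was well above background.

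**Figure D3:**
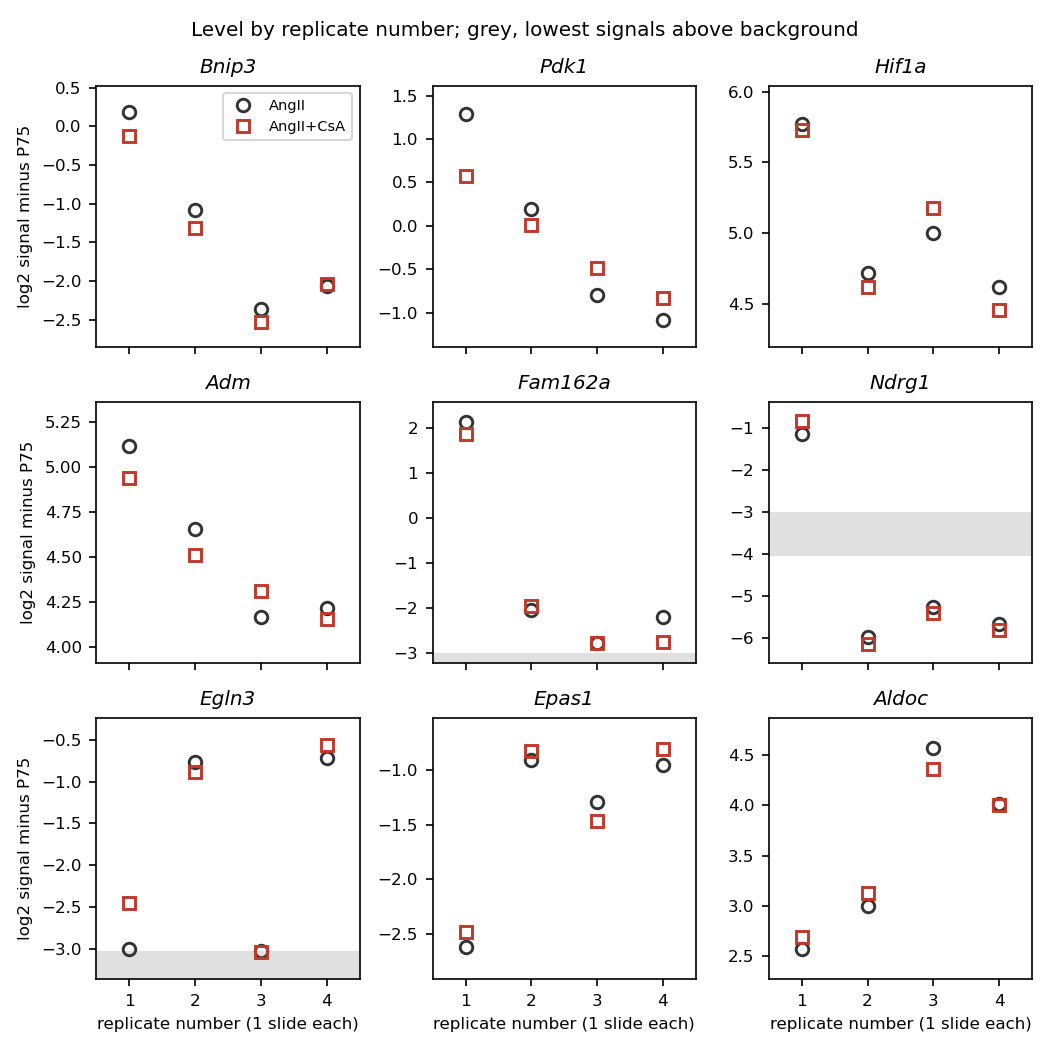
Log2 signal minus P75 (vertical axis, own range in each panel) by replicate number for 9 genes, circles AngII and squares AngII+CsA. The grey band, drawn where a panel reaches it, is the range over arrays of the lowest signal well above background; Fam162a and Ndrg1 are high in replicate 1 only.

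Most glycolytic enzymes among the members were highest in replicate 3, but only under some scalings. In P75-scaled values 17 of 37 members (45.9%) were highest in replicate 3, against 23.4% of all genes, and 12 of the 13 tested glycolytic enzymes were among them, Hk2 being the exception. With transporters, Ldha and Slc16a3 they made 15 of 17. The further glycolysis and pyruvate genes did not share this. Of those 28, 6 (21.4%) were highest in replicate 3, near the share of all genes. Another 6 were highest in replicate 4, against 13.2% of all genes. These counts use the brightest probe of each gene. With a gene's probes averaged, 12 of the 17 were highest in replicate 3, against 21.7% of all genes. Aldoa read 10.84, 10.72, 11.54 and 10.98 with AngII and 10.85, 10.73, 11.45 and 10.92 with CsA. Bright probes in general shared this, where brightness is no measure of abundance: of 1774 genes with a mean above 5, 48.6% were highest in replicate 3, against 20% of the 13107 others, and 11 of the 17 were among the bright. Under quantile normalization, which forces the arrays to the same distribution, 2 members remained highest in replicate 3 (Aldoc and Ldha), where 11.95% of all genes were. The quantile-normalized means of Aldoa were 17.54, 17.71, 17.72 and 17.63 in replicates 1 to 4, and those of Ldha 16.44, 16.56, 16.84 and 16.57. The authors' deposited table also gave 2 highest in replicate 3. The F-test of replicate number called 8135 genes in that table and 8172 under quantile normalization. The 2 settings are thus close and are not counted as separate checks. Under quantile normalization 9 of the 17 had both replicate 1 arrays below the other 6, against 24.1% of all genes. The authors' table also gave 9, against 23.8%. In P75-scaled values 3 of the 17 did, against 19.5%. The TCA and respiratory list fell less far. It went from 22 of 35 genes highest in replicate 3 (62.9%, against 23.4% of all genes) to 10 of 35, against 11.95%. The quantile-normalized means of Bnip3 still ran 6.68, 5.38, 4.35 and 4.52.

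**Figure D4:**
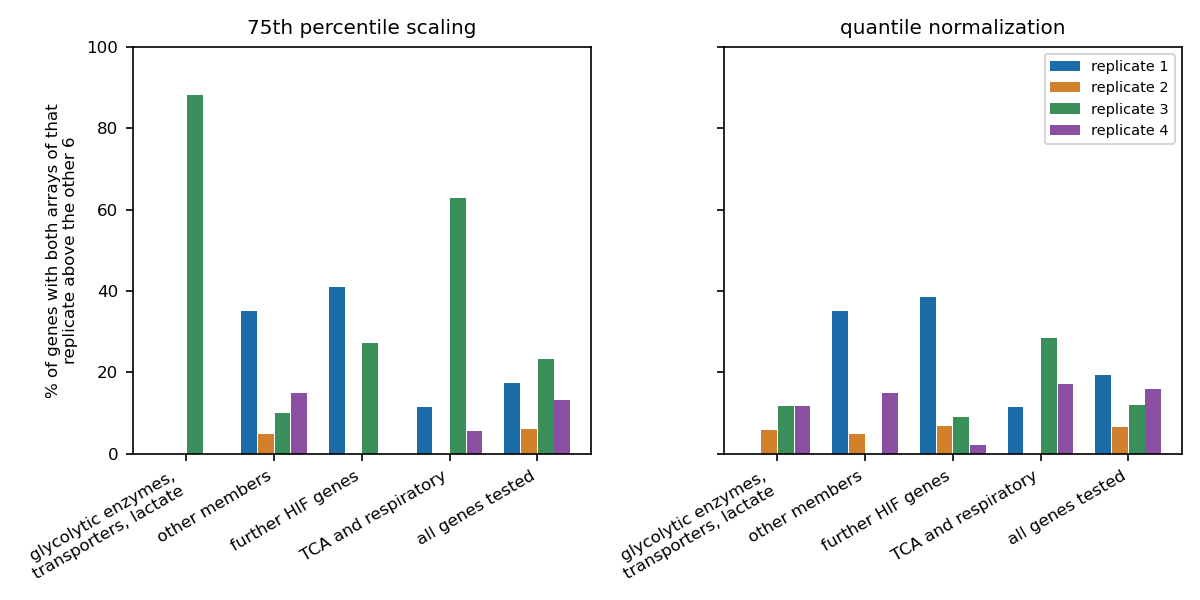
Percent of genes (vertical axis) whose 2 arrays of a replicate number both lay above the other 6, for groups of members, further lists and all genes tested, under 75th percentile scaling and quantile normalization. The replicate 3 bar of the glycolytic group (15 of 17) drops to 2 of 17, while the replicate 1 bar of the further HIF genes goes from 18 to 17 of 44.

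Probes of the same gene did not always give the same order of replicate numbers. Pgk1, which forms ATP in glycolysis, has overlapping probes that share 38 bases. The brighter read 9.56, 9.26, 9.66 and 9.20 with AngII and 9.46, 9.19, 9.62 and 9.22 with CsA. The dimmer read 5.49, 6.51, 5.31 and 6.63 with AngII and 5.59, 6.51, 5.33 and 6.70 with CsA, so replicates 2 and 4 were high on one probe and low on the other. Between the 10 spots of the dimmer probe the SD was at most 0.14 on any array. The probes differ in the 22 bases at opposite ends, shown here in lower case.
Pgk1 dimmer probe: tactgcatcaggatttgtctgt
Pgk1 brighter probe: accattgtgcattgtagagggc
They lie at chrX:101530787-101530846 and chrX:101530809-101530868 in mm7. Vegfa differed between probes too: the brightest was highest in replicate 1, while the 10-spot probe averaged 5.19, 5.15, 5.51 and 4.96 over replicates 1 to 4, highest in replicate 3. The Bnip3l probes shared their order at the ends, with 7.42 and 5.51 in replicate 1 and 5.74 and 3.11 in replicate 4. The second Ldha probe averaged 8.24, 8.03, 8.32 and 8.19, a range of 0.29, where the brighter one had 1.00. The brightest Gpi1 and Hk1 probes were highest in replicate 3, but not every other probe of these genes was. A dimmer Gpi1 probe averaged -1.11, -0.34, -1.12 and -0.40. The Hk1 probe with the lowest coordinate averaged 0.77, 1.67, 0.37 and 1.78, while some other Hk1 probes were highest in replicate 3. The second Aldoa probe was highest there too, with 10.80, 10.68, 11.44 and 10.85.

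**Figure D5:**
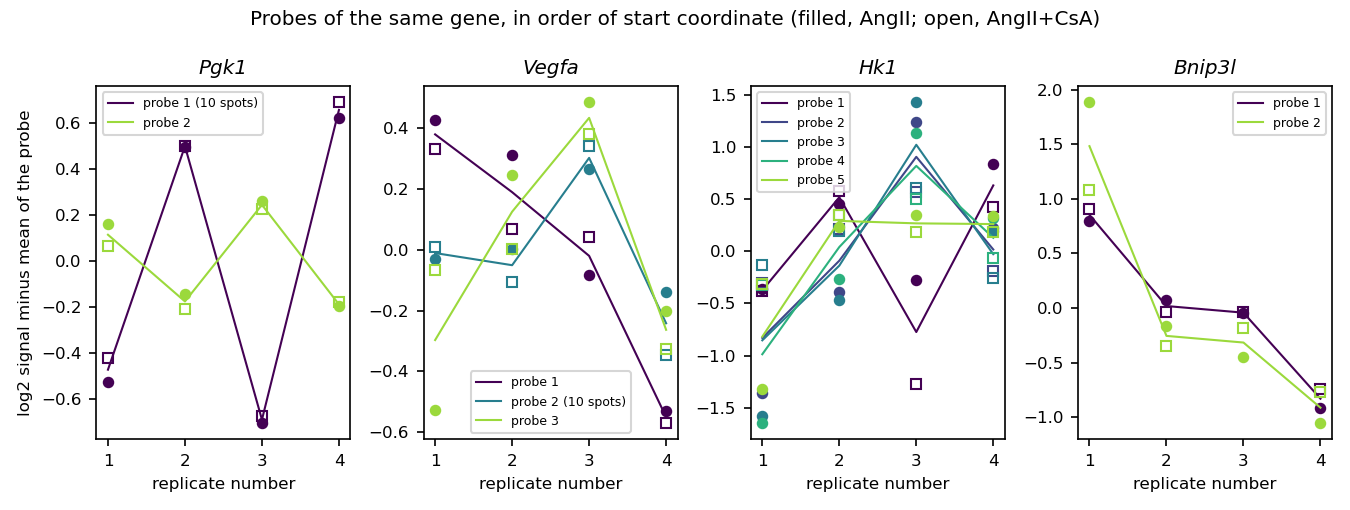
Log2 signal minus the mean of the probe (vertical axis) by replicate number for probes of 4 genes above background on at least 4 arrays; filled symbols are AngII, open symbols AngII+CsA, lines join replicate-number means. The Pgk1 probes run in opposite order, while both Bnip3l probes fall from replicate 1 to a low in replicate 4.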

How the data were processed

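Total RNA of 8 cultures was amplified into Cy3-labelled RNA and hybridized to 1-colour Agilent arrays, per the labels' protocols. Per the file headers, Agilent Feature Extraction 9.5.3.1 (protocol GE1-v5_95_Feb07) read the spots, and the deposited files give a linear intensity per spot. A table of normalized log2 values deposited by the authors was used as an alternative, and its method and scale are not given in the sources used here.

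Control and outlier spots were left out, log2 of the processed signal was set minus each array's 75th percentile, and repeated spots were averaged per probe. Probes well above background on at least 4 arrays were kept, and each gene was represented by its brightest probe. Groups were compared with moderated linear models in limma 3.58.1 under R 4.3.3 (two-sided, Benjamini-Hochberg over all genes, threshold 0.05). A run on simulated data used treatment differences larger than those of the members. It therefore does not show whether differences as small as theirs would be found. The numbers of the replicates pair the arrays: deviations of same-numbered arrays from their group means correlated at 0.70 to 0.86, and other pairs of arrays at -0.79 to 0.29. The labels call the cultures independent, and p-values measure the spread between these 8 arrays, whose number limits the precision.

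Members and lists were chosen with earlier results of these data known. Values on every array are given for the 6 members with the smallest p with the block, the 6 with the largest and the 3 with the smallest SD of replicate-number means, for Hif1a, Epas1, Egln1, Egln3, Slc2a1, Hk2, Ldha, Vegfa and Car9 whatever they showed, and for other genes as examples picked after their values were seen. Alternatives were background correction, scaling, filters, probe choice, outlier spots, the block, the authors' table and leaving out arrays.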

Additional observations from a re-analysis of the deposited data

Results flagged for a closer look

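In 78 groups of 4 arrays (39 genes, either treatment), an array that stood apart was sought as the gap to its nearest neighbour over the range of the group, with a limit of 0.829 (Dixon, 95%). It was passed by 5, where chance gives about 1 in 20 groups. Pfkfb3 was high in the AngII+CsA array of replicate 3 (4.09, nearest 3.67, ratio 0.929). Pfkfb4 was low in the AngII array of replicate 3 (-2.87, nearest -1.57, ratio 0.837), where it was not well above background. The other 3 were all high in replicate 1: Fam162a with AngII (ratio 0.849), Ndrg1 with AngII (ratio 0.853) and Ndrg1 with AngII+CsA (ratio 0.860).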

How the results depend on the processing

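No member passed the treatment test under any setting run. Over all genes the calls were 0 with the groups alone, 4 with the replicate block, 6 with replicate number as a random effect and 3 with normexp and the block; leaving out any 1 array, or any replicate number with the block, gave 0. The members' median difference was 0.0639 with normexp, with or without the block, and 0.0670 scaled to the median, and -0.0993 to -0.00508 on leaving out arrays. With normexp the difference turned to -0.201 for Egln1, -0.0228 for Egln3, -0.0217 for Epas1, 0.0939 for Hif1a, 0.00617 for Slc2a1 and 0.0762 for Vegfa. Scaled to the median, Hif1a gave 0.0670 and Vegfa 0.0361, and averaging probes gave -0.0542 for Ldha. With the block, leaving out replicate 1 gave -0.0147 for Ldha and 0.0139 for Slc2a1, replicate 2 -0.0240 for Ldha, replicate 3 -0.0502 for Egln1 and replicate 4 0.00987 for Hif1a. Leaving out single arrays without the block, which unbalances the pairs, moved the difference between -0.624 and 0.336 for Bnip3, -0.374 and 0.513 for Egln1, -0.247 and 0.579 for Egln3, -0.346 and 0.413 for Epas1, -0.277 and 0.215 for Hif1a, -0.154 and 0.252 for Ldha, and -0.251 and 0.115 for Vegfa. The F-test called 17 members under quantile normalization and 17 in the authors' table, 13 to 29 on leaving out replicate numbers, lowest without replicate 3. Over all genes it called 15399 with no filter and 6518 to 9259 on leaving out replicate numbers, lowest without replicate 4. Without replicate 3 the adjusted p of Egln1 was 0.0839. Members lower in 4 pairs numbered 1 under quantile normalization, 0 scaled to the median and 1 in the authors' table, and those higher numbered 4 with normexp and 3 scaled to the median. Members highest in replicate 3 numbered 2 under quantile normalization and 2 in the authors' table. The rule of highest arrays and its alternatives were chosen after seeing the data. Differences with the block for Hk2, Pfkfb3, Slc16a3, Plod2 and Car9 kept their sign but moved by over 1.5 times under some settings, as given beside them. The causes were not tested. Egln1, Egln3 and Ndrg1 were limited by signal near background, as were P4hb and Lox in replicate 3.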
